A study of Homo sapiens with 6 samples.

Results

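Transcripts whose array annotation carries a LINC name, the placeholder given to long intergenic noncoding RNAs, were examined in BT549 cultures with and without induction of the microRNA miR-200c. The rows were those whose single gene symbol was LINC followed by digits alone. There were 2799 of them, 1614 for exon regions and 1185 for exon junctions, among 924687 rows in all, and they made up 250 of 22085 genes. A further 360 rows named a LINC symbol beside another gene and 34 carried a LINC symbol with a suffix, and neither kind was used. BT549 is an established line of human breast cancer cells that lack the estrogen, progesterone and HER2 receptors. All cells carried the doxycycline-inducible construct pTripZ-200c. The 3 miR-200c cultures (A, B and C) were kept in 1 µg/mL doxycycline for 48 h, and the 3 Ctrl cultures (A, B and C) were left without the drug for the same time. Each culture gave 1 array, for which 1 µg of total RNA was labelled with biotin, so n = 3 per group. All cultures came from 1 line, so p-values measure the spread between cultures of it, and no Ctrl culture received the drug, so doxycycline and miR-200c cannot be told apart.

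Long intergenic RNAs are transcribed from their own loci between protein-coding genes, are usually spliced and capped, and mostly occur at low levels with strong restriction to a few cell types. Some act in the nucleus on the transcription of neighbouring genes, and others act in the cytoplasm, where they can bind microRNAs or proteins. MiR-200c belongs to a family that keeps cells epithelial by repressing the transcription factors ZEB1 and ZEB2, which bind E-box sequences, and it finds its targets through its seed. Many LINC numbers are provisional, and a locus gets another name once a product or function is known.

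The sequence of the induced microRNA is given first, from RefSeq (build GRCh38.p14, chr12:6963742-6963764, plus strand), with its seed, bases 2 to 8, in capitals. The promoters that follow belong to 2 of the 3 LINC genes that rose, and run from 250 bases before to 50 after the transcript start in RefSeq, on build GRCh38.p14. They lie at chr1:22024941-22025240 on the plus strand for LINC00339 and at chr9:95875928-95876227 on the minus strand for LINC00476, which RefSeq now lists as ERCC6L2-AS1.
hsa-miR-200c-3p: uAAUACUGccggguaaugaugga
LINC00339: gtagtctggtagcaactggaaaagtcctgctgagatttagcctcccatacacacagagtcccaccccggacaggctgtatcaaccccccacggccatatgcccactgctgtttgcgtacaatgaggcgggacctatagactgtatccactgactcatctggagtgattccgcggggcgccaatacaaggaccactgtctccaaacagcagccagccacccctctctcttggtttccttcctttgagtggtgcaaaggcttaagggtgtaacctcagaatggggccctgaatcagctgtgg
LINC00476: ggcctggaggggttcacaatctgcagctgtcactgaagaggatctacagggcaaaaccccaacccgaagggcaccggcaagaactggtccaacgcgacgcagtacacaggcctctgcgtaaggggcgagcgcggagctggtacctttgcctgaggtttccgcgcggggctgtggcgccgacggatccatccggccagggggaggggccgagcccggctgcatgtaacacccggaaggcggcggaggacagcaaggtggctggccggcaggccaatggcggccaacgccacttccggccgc

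The ZEB-type E-box was searched as CAGGTG and its reverse complement CACCTG, which covers both strands, and would stand in capitals. These letters occurred in neither printed promoter. The promoter of LINC00371, the LINC gene that fell, was not printed and held 1 such E-box. LINC00052, the other LINC gene that rose, had no promoter in the RefSeq table. The letters occurred in 43 of the 177 LINC promoters that the RefSeq table held (24.3%) and in 20.6% of all 27305 promoters there. The printed promoter of LINC00339 was 54.7% G and C and that of LINC00476 67.3%, against a median of 49.0% over the LINC promoters and of 58.3% over all promoters. The rule for LINC names did not use the promoter, and no level of binding was measured here.

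The arrays differed little, with medians over all rows from 5.18 to 5.21 and a lowest correlation over genes between any pair of 0.994. The MIR200C row and CDH1 were higher and ZEB1 was lower in the miR-200c cultures (adjusted p = 2.75e-07, 5.92e-07 and 1.07e-05 in limma). Of the markers listed for this mesenchymal line, VIM, FN1, ZEB1, CDH2, SPARC, AXL, CD44 and MSN (8 of 8) had both group means above the background rows. The hormone receptor genes ESR1 and PGR, the epithelial genes EPCAM and KRT5, and the blood, endothelial and liver genes PTPRC, CD3E, HBB, PECAM1 and ALB lay within their range in both groups, although EPCAM and KRT5 rose there by 0.49 and 0.46 (adjusted p = 0.000884 and 0.000296 in limma). The epithelial gene CDH1 had a mean of 7.10 in miR-200c cultures, above the range, and of 5.33 in Ctrl cultures, within it. The 23 background rows had log2 intensities from 4.10 to 6.36, and a group mean of at most 6.36 is called within the background range. Values are log2 intensities, which depend on the probes of each row, so only the same row or gene is compared between groups.

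Most LINC genes had no group mean above the top of the background range in these cells. The background rows had a median of 4.55, so a value within the range can still exceed most of them. Of the 250 genes, 9 had a group mean above the background range (3.6%), against 38.6% of all genes, and 241 had both means within it. A gene value is the mean over its rows (median 7 rows, from 1 to 97 for a LINC gene, with a single row in 11), so a few bright rows can be hidden by dim ones. Over all genes the median was 23 rows, so shares of LINC genes and of all genes rest on unlike numbers of rows. Of the 2799 rows 294 had a group mean above the range (10.5%), against 42.2% of all rows with 1 gene symbol. Among exon regions it was 9.42% of the LINC rows, and among junctions 12%. The 294 rows came from 107 genes, of which 53 had a single such row, while the other 143 LINC genes had none. Nearest the limit, the higher group mean was 6.18 in LINC00346, inside the range, and 6.63 in LINC00444, above it, whose Ctrl mean was 6.49.

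The comparison asked which LINC transcripts change when miR-200c is induced. LINC00052, LINC00339 and LINC00476 rose (1.2%), and LINC00371 fell (0.4%). These were 4 of 250 LINC genes past an adjusted p of 0.05 in limma (1.6%), against 9.9% of all 22085 genes, of which 6.06% were higher and 3.84% lower. All 4 had both group means within the background range, and they were 1.66% of the 241 such LINC genes, against 4.11% of all such genes. None of the 9 LINC genes above the range passed, while 19.1% of all genes above it did. The median difference, miR-200c minus Ctrl, was -0.02 over the LINC genes and -0.01 over all genes, and LINC differences ran from -0.24 in LINC00202 to 0.68 in LINC00052. At an unadjusted p under 0.05, 7 LINC genes were higher and 12 lower (7.6%), against 21.8% of all genes. The 3 arrays of each group did not overlap in 26 LINC genes (10.4%), 9 higher and 17 lower, against 26% of all genes.

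**Figure D1:**
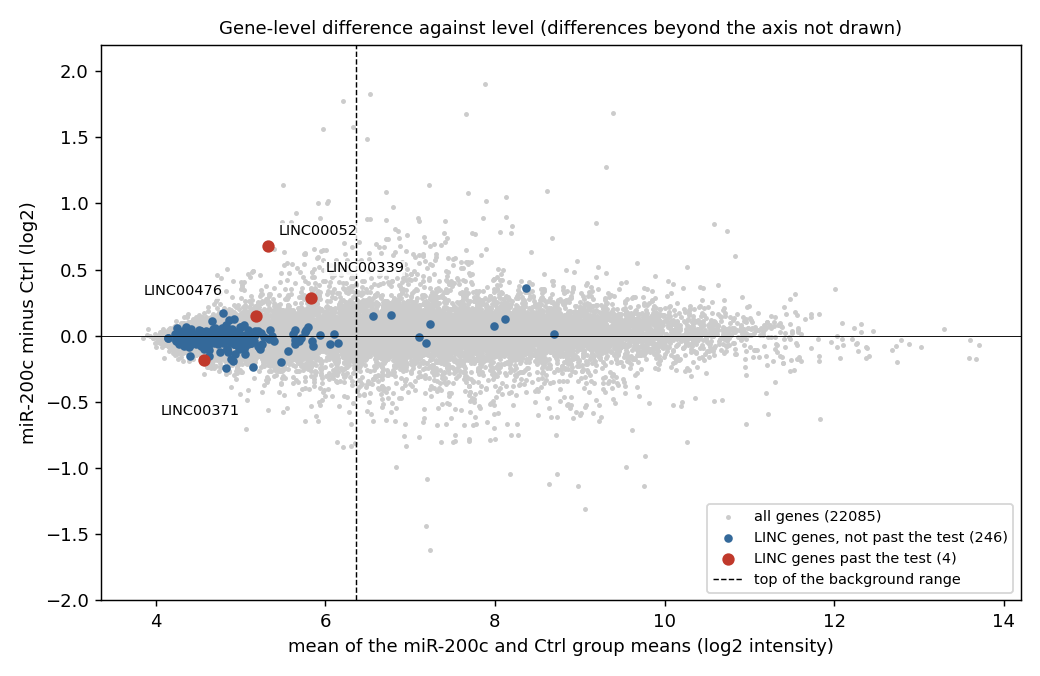
Difference between the groups (miR-200c minus Ctrl, log2) against the mean of the group means (log2 intensity) for all 22085 genes in grey (points beyond the axis are not drawn), with LINC genes in blue and the 4 past the test in red. Most LINC genes lie left of the dashed line at 6.36, the top of the background range, and LINC00052 stands highest among them at 0.68.

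LINC00052, a long intergenic RNA studied in breast cancer cells, had the largest change. Its gene values were 5.55, 5.74 and 5.70 in the miR-200c cultures A, B and C, against 5.14, 4.81 and 4.997 in the Ctrl cultures. The groups did not overlap, and the Ctrl cultures were the more scattered. The difference was 0.68 (SE 0.083, 95% interval 0.49 to 0.87, adjusted p = 0.00138 in limma).

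The change of LINC00052 rested on 3 of its 5 rows. The junction row JUC15004058 had 7.78, 8.52 and 8.01 in the miR-200c cultures, against 6.60, 5.67 and 6.08 in the Ctrl cultures. Every miR-200c value was above every Ctrl value, and Ctrl A alone of the Ctrl arrays lay above the background range. The measured difference of this row was 1.98 (SE 0.27, adjusted p = 0.0357 over all rows in limma). Its Ctrl mean of 6.12 lay within the background range, and its miR-200c mean of 8.10 lay 1.74 log2 units above the top of that range. The interval of the difference ran from 1.33 to 2.64. The exon regions PSR15007687 and PSR15007688 had differences of 0.64 and 0.67, with groups that did not overlap and all values within the background range (adjusted p = 0.0950 and 0.102). The remaining junction and exon region had differences of 0.14 and -0.05 with overlapping groups, so the gene value understates the change in its brightest row. That junction's call was lost in each of the 6 fits that left out 1 array (adjusted p from 0.0507 to 0.137), while the gene's call held in all 6 (differences 0.59 to 0.76).

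LINC00339, a long noncoding RNA encoded next to the cell polarity gene CDC42, rose in many but not all of its rows. Its gene values were 5.91, 5.98 and 6.03 in the miR-200c cultures, against 5.70, 5.66 and 5.69 in the Ctrl cultures. The groups were tight and clearly apart, with a difference of 0.29 (SE 0.040, 95% interval 0.20 to 0.38, adjusted p = 0.00247 in limma). Of its 18 rows 14 were higher, and 9 of them at an unadjusted p under 0.05, while none was lower at that level and none passed over all rows. Among all 2799 LINC rows, 65 were higher and 73 lower at that level. Its 6 rows above the background range were all exon regions.

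The exon region PSR01004283 of LINC00339 had 7.33, 7.54 and 7.45 in the miR-200c cultures, against 6.53, 5.88 and 6.75 in the Ctrl cultures. Its neighbour PSR01004282 had 8.80, 9.26 and 8.93, against 8.47, 8.07 and 8.20 in the Ctrl cultures. In both the groups did not overlap, with differences of 1.06 and 0.75 (adjusted p = 0.117 and 0.118 in limma). Taken over rows whose mean over all 6 arrays was above the background range, a setting chosen after the data were seen, LINC00339 had a difference of 0.56 (adjusted p = 0.00516). With the median of its rows in place of the mean, the difference was 0.32 with an adjusted p of 0.175.

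LINC00476 rose by a small amount as a gene and more in a few of its rows. Its gene values were 5.23, 5.26 and 5.27 in the miR-200c cultures, against 5.13, 5.09 and 5.11 in the Ctrl cultures, with no overlap. The difference was 0.15 (SE 0.033, adjusted p = 0.0269 in limma), and the call was lost in each of the 6 fits without 1 array (adjusted p from 0.0517 to 0.0990) and with the median of its rows (difference 0.08, adjusted p = 0.585).

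Among its 30 rows the exon region PSR09017085 passed over all rows. It had 9.01, 8.89 and 9.05 in the miR-200c cultures, against 8.46, 8.31 and 8.19 in the Ctrl cultures. All miR-200c arrays lay above all Ctrl arrays, with a difference of 0.66 (adjusted p = 0.0421 in limma), which also lost its call in each fit without 1 array (0.0805 to 0.160). The junction JUC09009184 had 6.56, 6.89 and 7.003 against 6.05, 5.87 and 5.67 in the Ctrl cultures, whose mean was within the background range. Its measured difference was 0.95 (adjusted p = 0.0517 in limma), and its miR-200c mean lay 0.45 above the top of that range. The exon region PSR09017078 had a difference of 0.64 (adjusted p = 0.0524). The other bright junctions JUC09009188 and JUC09009182 had differences of 0.24 and -0.03 with overlapping groups, so the rows of this gene differed unequally.

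LINC00371 fell, at a level where no row exceeded the background range. RefSeq now lists it under the protein-coding gene C13orf42, where it also lists LINC00372, which did not pass. The gene values of LINC00371 were 4.51, 4.46 and 4.45 in the miR-200c cultures, against 4.65, 4.62 and 4.71 in the Ctrl cultures. The groups did not overlap, and the difference was -0.19 (SE 0.038, adjusted p = 0.0169 in limma). Of its 5 rows the junction JUC13004531 had 5.18, 4.51 and 4.71 against 5.65, 5.50 and 5.22 in the Ctrl cultures, a difference of -0.66 (adjusted p = 0.272), and the other 4 had differences from -0.08 to -0.05. With exon regions alone the gene's difference was -0.06 (adjusted p = 0.359), and the call was lost in 4 of the 6 fits without 1 array (without Ctrl A or C and without miR-200c B or C).

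**Figure D2:**
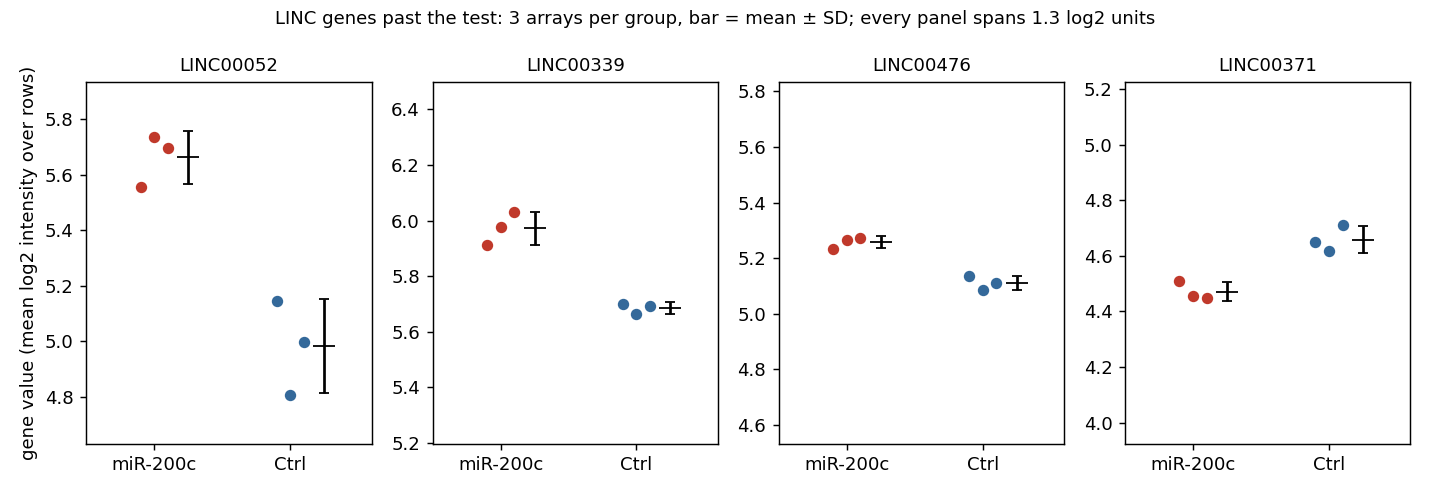
Gene values (mean log2 intensity over rows) of the 4 LINC genes past the test in each of the 3 miR-200c arrays (red) and 3 Ctrl arrays (blue), with mean and SD in black. The groups do not overlap in any panel, and the gap in LINC00052 (0.68) is wider than in LINC00339 (0.29), LINC00371 (-0.19) and LINC00476 (0.15).

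**Figure D3:**
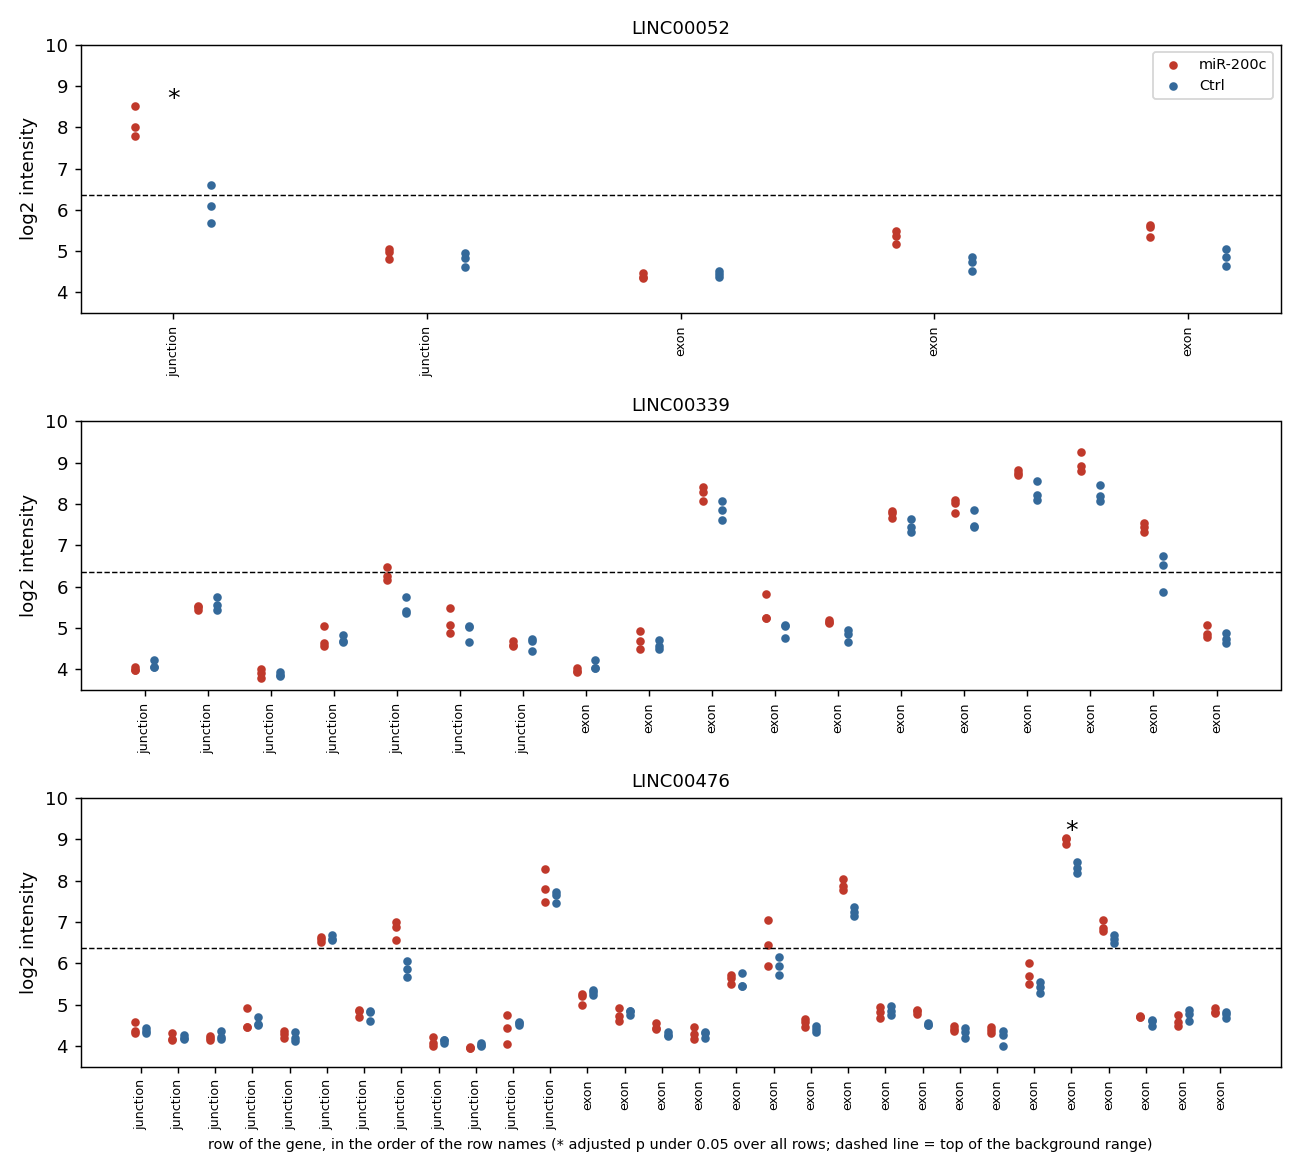
Log2 intensity of every exon region and junction row of LINC00052, LINC00339 and LINC00476 in the miR-200c arrays (red) and Ctrl arrays (blue). The dashed line is the top of the background range at 6.36 and stars mark the 2 rows past the test over all rows, 1 in LINC00052 and 1 in LINC00476.

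Long intergenic RNAs are often discussed together with the genes beside them, so the nearest measured genes in RefSeq were set beside the 4, a choice made after their values were seen. Beside LINC00052 lies NTRK3, which encodes a neurotrophin receptor tyrosine kinase. NTRK3 fell by 0.24 (6.06 in miR-200c and 6.31 in Ctrl cultures on average, adjusted p = 0.00296 in limma), with both means within the background range, while LINC00052 rose. The 5S RNA pseudogene RNA5SP400, on the other side of LINC00052, had a difference of 0.01 (adjusted p = 0.911 in limma). Of all genes, 9.9% passed the same test. CDC42, next to LINC00339, had means of 8.52 in both groups (difference 0.00, adjusted p = 0.965), and CELA3A on the other side, an elastase-family gene, was at background. ERCC6L2, a gene for a helicase-like protein on the opposite strand that overlaps LINC00476, rose by 0.17 (7.20 in miR-200c and 7.04 in Ctrl cultures, adjusted p = 0.0328). The long noncoding RNA LOC100507346, on the other side of LINC00476, had a difference of 0.03 (adjusted p = 0.768 in limma). No source used here says whether the rows of LINC00476 measure 1 strand alone, so its signal and that of ERCC6L2 cannot be told apart where they overlap. Beside LINC00371, FAM124A had a difference of -0.01 (adjusted p = 0.881), and the 5S RNA pseudogene RNA5SP29 on the other side had one of -0.16 (adjusted p = 0.0564), with both means within the background range.

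Over single rows, 2 of 2799 LINC rows passed over all rows (0.0715%), both higher and both described above, against 0.728% of all rows, of which 0.451% were higher and 0.277% lower. Among rows with a group mean above the background range it was 2 of 294 LINC rows (0.68%) against 1.82% of all such rows, 1.11% higher and 0.71% lower. The median difference of the 294 rows was -0.03, and that of all rows above the range was 0.01. At an unadjusted p under 0.05, 28 of the 294 were higher and 19 lower (16%, against 19% of all such rows). A difference over 0.5 either way was measured in 31 of them, 18 higher and 13 lower (10.5%, against 8.78% of all such rows).

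The largest measured falls among bright LINC rows were in junctions and did not pass. JUC10008085 of LINC00202 had 5.98, 5.73 and 4.67 in the miR-200c cultures, against 7.54, 6.18 and 7.79 in the Ctrl cultures, a measured difference of -1.71 (adjusted p = 0.274 in limma). Its miR-200c mean of 5.46 lay within the background range, and its Ctrl mean of 7.17 lay 0.81 log2 units above the top of that range. The interval of the difference ran from -2.89 to -0.53. JUC06010952 of LINC00472 had 10.02, 8.94 and 7.83 against 10.14, 10.32 and 10.54, a difference of -1.40 (adjusted p = 0.390). In both the groups did not overlap, and the miR-200c cultures were scattered over more than 1 log2 unit. In JUC10008085 the Ctrl cultures were scattered still more (SD 0.87 against 0.70), and Ctrl B at 6.18 lay close to miR-200c A at 5.98. JUC13004767 of LINC00458 had 7.13, 7.65 and 5.41 against 7.79, 8.26 and 7.93 in the Ctrl cultures (difference -1.26, adjusted p = 0.498), where miR-200c C was far lower than the rest and the groups did not overlap.

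LINC00467 had a difference spread over many rows that did not reach the threshold for the gene. Its gene values were 6.89, 6.86 and 6.80 in the miR-200c cultures, against 6.66, 6.79 and 6.64 in the Ctrl cultures, which did not overlap (difference 0.16, adjusted p = 0.0877 in limma). Of its 17 rows 8 lay above the background range, and 6 were higher at an unadjusted p under 0.05, with none lower. Among all 2799 LINC rows, 65 were higher and 73 lower at that level. Its junction JUC01014876 had 9.35, 9.09 and 9.36 against 8.76, 8.67 and 8.57 in the Ctrl cultures (difference 0.60, adjusted p = 0.0732). LINC00467 as a gene passed with exon regions alone and without Ctrl B. Over rows whose mean over all 6 arrays was above the background range it also passed (difference 0.32, adjusted p = 0.0235). With LINC00052, LINC00339 and LINC00476 it made 4 of 101 LINC genes past the test there (3.96%, all higher), against 7.8% of all 16538 genes with such rows, of which 4.75% were higher and 3.05% lower. LINC00052 entered that count by its junction JUC15004058 alone, which was above the range in the miR-200c group mean and not in the Ctrl one, so its call there is no further support.

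The 9 LINC genes above the background range gave differences from -0.06 to 0.36, and none passed with all 6 arrays. LINC00263, now OLMALINC, an RNA named for oligodendrocyte maturation, had 8.68, 8.69 and 8.74 in the miR-200c cultures, against 8.75, 8.67 and 8.67 in the Ctrl cultures. The groups overlapped, and the difference was 0.01 (95% interval -0.07 to 0.10). LINC00493, which is now the small mitochondrial protein gene SMIM26, had 8.59, 8.44 and 8.59 against 8.41, 7.83 and 8.30 in the Ctrl cultures. The groups did not overlap, with a difference of 0.36 (95% interval 0.06 to 0.66, adjusted p = 0.145 in limma), and Ctrl B was the lowest array by a wide margin. Without Ctrl B the difference was 0.18. SEC23B, a vesicle coat gene that neighbours LINC00493 in RefSeq, rose by 0.25 (adjusted p = 0.00498), and DTD1 on its other side had a difference of 0.01 (adjusted p = 0.950).

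LINC00265 had 8.16, 8.13 and 8.26 in the miR-200c cultures, against 8.24, 7.92 and 8.01 in the Ctrl cultures (difference 0.13, interval -0.05 to 0.31). LINC00355 had 8.15, 7.99 and 7.93 against 7.99, 7.95 and 7.90 (difference 0.08, interval -0.06 to 0.21), and all its 11 rows were above the background range. In both genes the groups overlapped. LINC00094, now the BRD3 opposite strand gene BRD3OS, had 7.25, 7.25 and 7.32 against 7.25, 7.18 and 7.12 (difference 0.09, interval -0.01 to 0.19). LINC00449 and LINC00294 had differences of -0.06 (interval -0.29 to 0.17) and -0.01 (interval -0.21 to 0.19). In LINC00449 only 1 of 3 rows lay above the background range, with row means from 4.45 to 11.23, and in LINC00294 a single row did. For 8 of the 9 genes the 95% interval lay within 0.5 log2 units of 0, and for 4 of them within 0.25.

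**Figure D4:**
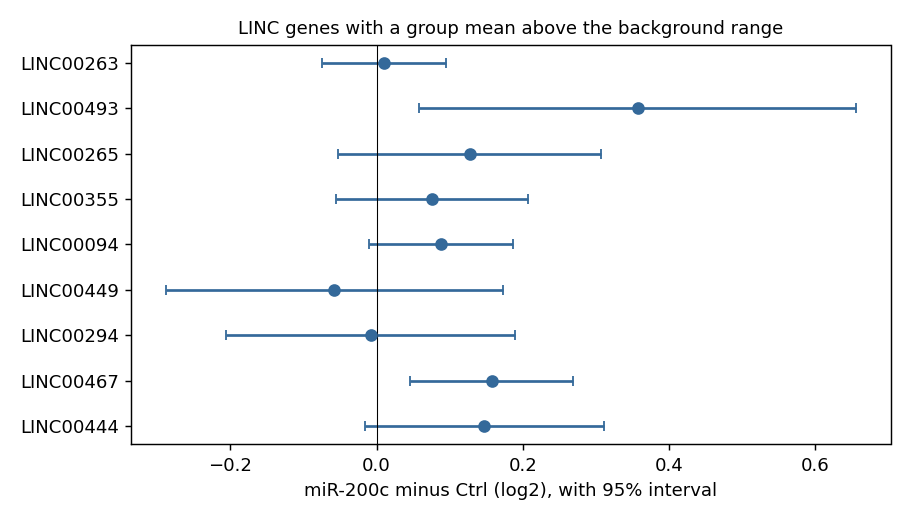
Difference (miR-200c minus Ctrl, log2) with its 95% interval for the 9 LINC genes with a group mean above the background range, n = 3 arrays per group. The interval of LINC00493 reaches 0.66 and is the only one to extend past 0.5, and LINC00493 and LINC00467 alone have intervals above 0, although neither passed after adjustment.

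Of 14 LINC names listed for their place in cancer studies, 8 had rows of their own here, and of these LINC00052 alone passed, against 9.9% of all genes. LINC00152, now CYTOR, an RNA linked to the cytoskeleton, had 6.13, 6.09 and 6.09 in the miR-200c cultures, against 6.10, 6.09 and 6.08 in the Ctrl cultures. Its difference was 0.01 (95% interval -0.06 to 0.09), over 97 rows of which 27 exceeded the background range and reached 11.39 in miR-200c and 11.48 in Ctrl cultures. Within this gene the exon region PSR02035796 had 7.49, 7.56 and 7.47 against 7.77, 7.80 and 7.79 in the Ctrl cultures. The groups did not overlap there, and the difference of -0.28 did not pass (adjusted p = 0.185 in limma).

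LINC00472 had a difference of 0.06 (adjusted p = 0.574 in limma) with rows that went apart, from -1.40 to 0.80. LINC00511 had a difference of -0.07 and LINC00346, now PRECSIT, one of -0.06, both with overlapping groups. LINC00473, an RNA known to respond to cyclic AMP, had means of 4.79 in miR-200c and 4.82 in Ctrl cultures. LINC00460 and LINC00324 likewise lay within the background range, with differences of -0.02 and -0.03.

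Of the 250 symbols, 204 were current in RefSeq, 43 were found as a synonym of 1 gene and 3 were ambiguous. RefSeq lists 230 of them as long noncoding RNAs, 15 under protein-coding genes and 2 as transcribed pseudogenes. Of the 15 now protein-coding, 3 had a mean above the background range (LINC00493, LINC00094 and LINC00444) and 1, LINC00371, passed the test. Of the 230 long noncoding RNAs 6 were above the range and 3 passed, all higher, where 9.9% of all genes passed and 6.06% were higher. LINC00444 is now listed under SUCLA2, a gene for a mitochondrial succinyl-CoA synthetase subunit. Its 5 rows, 1 of them above the range and filed apart from rows named SUCLA2, had a difference of 0.15 (adjusted p = 0.288 in limma). Without miR-200c A, the lowest miR-200c array, the difference was 0.23 and passed (adjusted p = 0.0304). LINC00085, now SPACA6, a gene for a sperm acrosome protein, had a difference of 0.08 with groups that did not overlap (adjusted p = 0.242). LINC00341, now the nesprin gene SYNE3, had a difference of -0.14 (adjusted p = 0.302), and LINC00238 and LINC00282, now CCDC196 and TMEM272, had -0.05 and -0.06. Chromosome 13 alone held 79 of the LINC genes, of which 3 were above the background range and 1 passed, against 9.9% of all genes.

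In 4 genes a single exon region was very bright while most of the gene was dim. PSR13006762 of LINC00598 had a mean of 12.97 in miR-200c and 13.07 in Ctrl cultures, while the gene mean was 4.83 and 4.86. PSR02044229 of LINC00607 had 12.78 and 12.82, in a gene with 4 of 40 rows above the background range. PSR07022123 of LINC00174 had 12.64 and 12.71, and PSR13007414 of LINC00444 had 12.49 and 12.39. The groups overlapped in each of these rows, with differences from -0.10 to 0.11. What else such a row may detect was not tested.

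Other long noncoding RNAs, from a list of 61 names without a LINC number, had 30 measured members, 13 of them with a group mean above the background range. Of the 30, 3 rose (10%) and 2 fell (6.67%), in all 16.7%, against 9.9% of all genes, and their difference from the LINC genes was not tested. OIP5-AS1, an abundant cytoplasmic RNA, had 8.42, 8.47 and 8.46 in the miR-200c cultures, against 8.27, 8.14 and 8.29 in the Ctrl cultures (difference 0.22, adjusted p = 0.0184 in limma). DANCR and HOTAIR rose by 0.21 and 0.19 (adjusted p = 0.0424 and 0.0485). The imprinted RNA MEG3 had 5.92, 5.92 and 5.95 against 6.37, 6.21 and 6.17 in the Ctrl cultures, a fall of 0.32 within the background range except for Ctrl A (adjusted p = 0.00635), and MIR100HG fell by 0.16. The nuclear RNA MALAT1 had a difference of 0.06 (adjusted p = 0.703).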

How the data were processed

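RNA from 6 cultures was measured on Affymetrix exon-level arrays, 1 array per culture. The authors deposited log2 intensities for every exon region and junction row, made with Partek per the submitters' processing notes; background correction, normalization, array build and row strand are not stated in the labels or notes. Rows were named from the platform's gene symbols. The 345 control rows were left out, which left 924687 rows. A gene value is the mean log2 value over the rows that name that 1 symbol. Groups were compared with limma (3.58.1, R 4.3.3; lmFit and eBayes) over 22085 genes and, separately, over all rows, with Benjamini-Hochberg adjustment and a threshold of 0.05. The script was tested on simulated data. The labels do not say whether cultures of the same letter were paired, and the main fits did not pair them. Deviations from the group means correlated at -0.166, -0.0301 and 0.215 for A, B and C, which cannot decide it.

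Named were 14 listed LINC symbols, LINC genes and bright rows past the threshold, the brightest 6 genes, and up to 8 now protein-coding ones. The other genes above background, the neighbours, the largest falls that did not pass and the rows above 12 were chosen after their values were seen. Members and lists were chosen with earlier results of these data known. Precision is limited by 3 arrays per group. The alternatives were the median of rows, exon regions alone, filters on dim rows or genes, quantile normalization, an intensity trend with a robust prior, a replicate block, leaving out each array and, added after the data were seen, rows whose mean over all 6 arrays was above the background range.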

Additional observations from a re-analysis of the deposited data

How the results depend on the processing

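The count of LINC genes that were higher was 3. It was 1 with the median of rows, 1 among genes above the median gene, 4 with exon regions alone and over rows above the background range (LINC00467 added in both), and 2 to 3 without 1 array. The count that were lower was 1. It was 0 with the median of rows, among rows above the median row, with exon regions alone, among genes above the median gene and over rows above the background range (chosen after the data were seen), 2 with the replicate block, and 0 to 3 without 1 array. Higher LINC rows numbered 2. They were 4 among rows above the median row, 1 with the intensity trend and robust prior, 0 with the replicate block, and 0 to 1 without 1 array. Lower LINC rows numbered 0, and 0 to 2 without 1 array. LINC00339 lost its call with the median of rows alone, and LINC00052 kept its call in every gene-level setting that tested it. Among rows above the median row and over rows above the background range, however, the value of LINC00052 was that of its junction JUC15004058 alone. Its calls in those settings are no further support. With the replicate block LINC00476 lost its call (adjusted p = 0.0690) and LINC00493 gained one (0.0320). Whether cultures of the same letter were paired is not stated in the labels.

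Several genes that did not pass changed sign. With the median of rows, LINC00263 was -0.0132 and LINC00238 0.0361. Among rows above the median row, LINC00152 was -0.0140, LINC00460 0.0489 and LINC00282 0.00762. With exon regions alone, LINC00152 was -0.00426, LINC00263 -0.0317 and LINC00449 0.00331. With quantile normalization, LINC00263 was -0.00536. Over rows above the background range, LINC00152 was -0.0364 and LINC00472 -0.0861. Without 1 array, LINC00324 ran from -0.10 to 0.0313, LINC00263 from -0.00611 to 0.0359, LINC00449 from -0.15 to 0.0449, LINC00460 from -0.0691 to 0.0235 and LINC00152 from -0.00345 to 0.0195. LINC00444 passed without miR-200c A (0.23, adjusted p = 0.0304). The cause was not tested. Signal over background limits what the 241 LINC genes within the background range can show.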
